A study of Mus musculus with 6 samples.

Results

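The ADAM and ADAMTS families of metalloproteinases, with the ADAMTS-like proteins, were followed in RNA of mouse cornea. Genes were taken by symbol: Adam with a number and an optional letter, Adamts with a number, and every Adamtsl, leaving out pseudogenes. Of 57 such genes with a row, 10 were listed at 0 in all libraries, and the other 47, of 54446 gene rows, are described here. All corneas came from wild-type C57BL/6 mice that were 6 weeks old. They formed 3 groups with 2 samples each: a group with no wound, a group with a wound, and a group with a wound whose eyes were given RNase III, which cuts double-stranded RNA, by subconjunctival injection. The injury was surgical and removed tissue from limbus, epithelium and stroma. The labels name neither a control injection for the wounded group nor a time after wounding. They do not say whether samples are separate animals or pools, so p-values measure only the spread between these samples, which may be technical.

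ADAM proteins are membrane-anchored proteases that cut the outer part off other membrane proteins, a step called shedding, which frees growth factors, cytokines and adhesion receptors from the cell surface. ADAMTS proteins are secreted, carry thrombospondin-type repeats and cut matrix proteins such as versican, procollagens and von Willebrand factor. ADAMTS-like proteins have the repeats without a protease domain and bind matrix microfibrils. Several ADAM genes lack a working active site or are known mainly from testis and epididymis. In the eye, human mutations of ADAMTS10, ADAMTS17 and ADAMTSL4 displace the lens, and human mutations of ADAMTS18 are known from disorders with a small cornea.

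The values are transcripts per 1000000 transcripts of a library (TPM), a length-corrected share, so levels of different genes can be compared. They keep no read depth, which is therefore unknown here. A library had 16751 to 21033 genes above 0, fewest in RNase III replicate 1. On the log2(TPM + 1) scale, replicates had Pearson correlations across genes of 0.943 to 0.968, and genes are not independent replicates. The corneal keratin gene Krt12 stood between 11216.58 and 19636.33 TPM in the 6 libraries, as the tissue label says. Markers of other tissues stood apart in single libraries. The summed TPM of 5 lens genes was 2744 in RNase III replicate 2 and 186 in wounded replicate 2 against 5.62 to 53.4 elsewhere. The sum of 5 retina and pigment genes was 3279 in unwounded replicate 2 against 58.9 to 697 elsewhere, and that of 4 skeletal muscle genes was 51.0 in unwounded replicate 1 and 23.5 in wounded replicate 1 against at most 1.4 elsewhere. The sums of 8 markers of keratocytes, the stromal cells, did not overlap between groups, at 5278 to 6778 TPM unwounded, 3502 to 3949 wounded and 930 to 1645 with RNase III. Taken singly, 6 of the 8 were lower without overlap with the wound, where 46.8% of the genes tested below were. In these tissue samples fewer cells of a type and less RNA per cell cannot be told apart.

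The family's RNA was mostly that of a few sheddases. By their mean over the 6 libraries 9 members had at least 10 TPM, 14 lay between 1 and 10 TPM, and 24 lay under 1 TPM. In unwounded corneas the order began with Adam15, a widely expressed sheddase, at 48 ± 5.47 TPM (SD, n = 2). Adam17 at 40 ± 0.382 TPM and Adam10 at 38.8 ± 2.38 TPM, the main sheddases of most cells, came next and overlapped each other. Adam9 at 24.3 ± 4.4 TPM and Adam28 at 23.4 ± 1.41 TPM overlapped too and lay below Adam10. Then came Adamtsl4 at 14.9 ± 2.98 TPM and Adamts1 at 12.9 ± 1.96 TPM, again overlapping. Adamts10, with 10.09 and 9.96 TPM, lay below both Adamts1 libraries and above both of Adamtsl5, with 8.08 and 9.80 TPM.

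**Figure D1:**
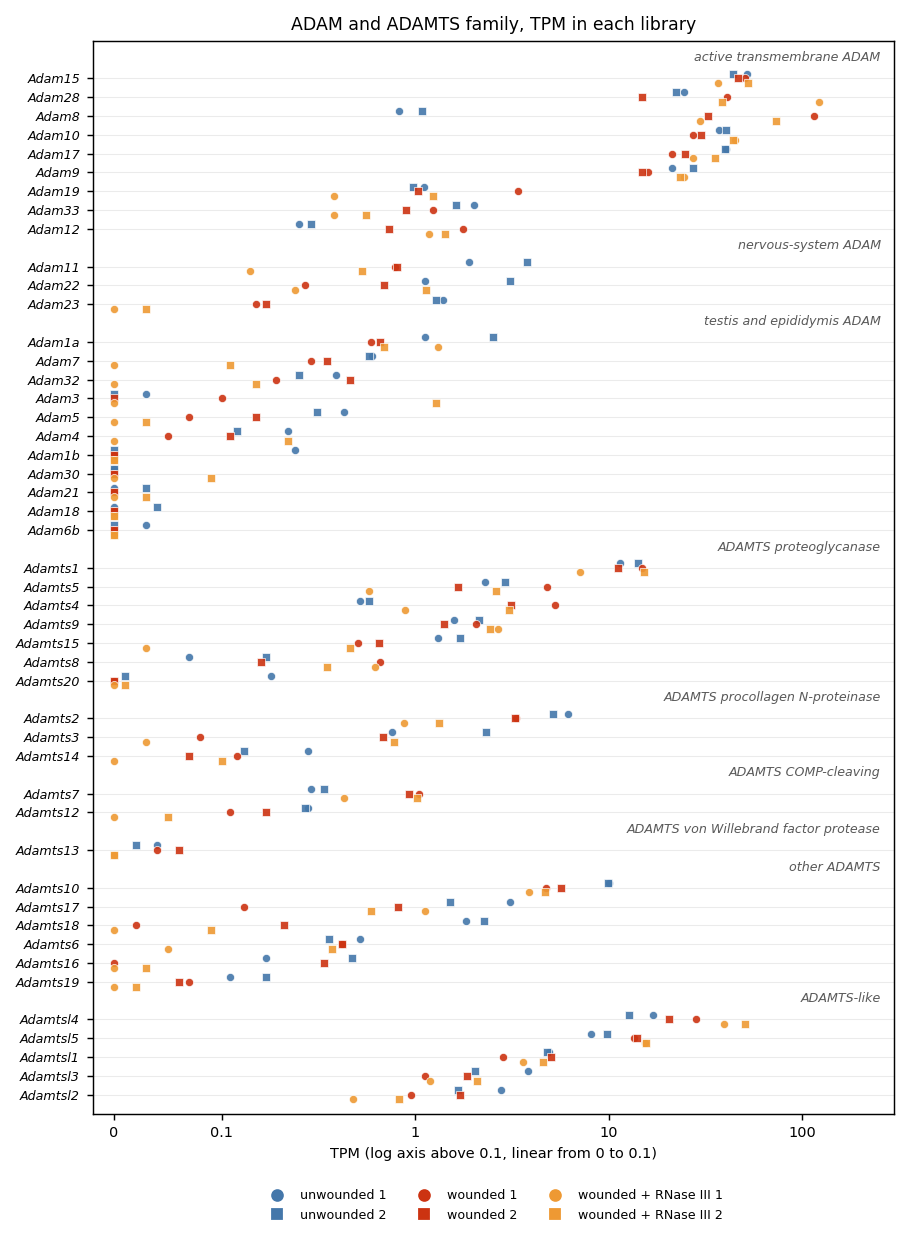
TPM of the 47 members in each of the 6 libraries, grouped by role, with blue for unwounded, red for wounded and orange for wounded corneas with RNase III, circles for replicate 1 and squares for replicate 2; the axis is logarithmic above 0.1 TPM and linear below. The blue points of Adam8 stand near 1 TPM and its other 4 points between 29.62 and 115.44 TPM, while those of Adam15 and Adamts1 lie close together.

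The 9 active transmembrane ADAM genes held between 67.0% and 78.2% of the summed TPM of the 47 members in every library. The 3 genes best known from the nervous system, Adam11, Adam22 and Adam23, summed to at most 8.19 TPM. Of 11 members known mainly from testis and epididymis, Adam1a, whose product helps sperm proteins mature, was the only one to reach 1 TPM in at least 2 libraries, with 1.12 and 2.53 TPM without a wound, 0.59 and 0.66 with one and 1.32 and 0.69 with a wound and RNase III. The other 10 stayed at or below 1.28 TPM, the value of the sperm gene Adam3 in RNase III replicate 2, and Adam7, an epididymal gene, had 0 to 0.60 TPM. In RNase III replicate 1, the library with the fewest genes above 0, 18 of the 47 members were listed at 0, against 3 to 7 in the other libraries. For 9 of these 18 no other library was at 0. The part of that library's quality in its low values was not tested.

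Wounded against unwounded corneas showed 1 very large rise in the family. A gene was tested where at least 2 libraries reached 1 TPM, which left 28 of the 47 members among 14748 genes. Of these 28, Adam8 and Adamts4 rose, 2 members where 6.12% of all tested genes rose (limma, adjusted p under 0.05). Adamts18 fell, 1 member where 9.83% of all tested genes fell, and 3 of 28 compare with 15.9% in both directions. With an unadjusted p under 0.05 there were 11 of 28, where 36.4% of all tested genes had one. The groups did not overlap for 20 of 28 members, 6 higher and 14 lower, beside 25.3% higher, 46.8% lower and 72.1% in all over the genes tested. These shares are near the background. The median log2 difference of the 28 was -0.43 beside -0.26 over all genes tested, and -0.20 beside -0.01 after median-of-ratios scaling. Over all genes 902 rose and 1450 fell, and after that scaling 1525 rose and 1001 fell. Of the 28 members 4 reached 1 TPM in the unwounded group only (Adam11, Adam23, Adamts15 and Adamts18) and so had to be lower elsewhere. Adam1a, Adam22 and Adamts17 reached 1 TPM in both unwounded libraries and in no wounded library, so with the wound they too had to be lower. Adamts4 reached 1 TPM in both wounded libraries and in no unwounded library, so with the wound it had to be higher. Adam12 and Adamts7 reached 1 TPM only in libraries with a wound, so the filter favoured higher values there.

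Adam8 (ENSMUSG00000025473, chromosome 7, 139978932 to 139992562, minus strand, GRCm38) encodes a sheddase of neutrophils, monocytes and other leukocytes that cuts adhesion receptors and other membrane proteins. It had 0.83 and 1.09 TPM without a wound, 115.44 and 32.73 with one and 29.62 and 73.74 with a wound and RNase III. Both unwounded libraries lay far below the other 4, and the wounded and RNase III libraries overlapped. Adam8 rose with the wound by 5.0 in log2(TPM + 1) units (limma SE 0.64, adjusted p = 0.0122), which is 32.0-fold on the TPM + 1 scale. Leaving out unwounded replicate 1 or 2 gave 4.91 or 5.10 and ended the call (limma adjusted p = 0.0947 and 0.113). Leaving out wounded replicate 1 gave 4.11, again without a call (limma adjusted p = 0.0646).

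Adam8 went from rank 25 among the 47 members in both unwounded libraries to ranks 1 and 2 in the wounded libraries, and it ranked 5 and 1 with RNase III. It made up 0.464% and 0.612% of the summed TPM of the active transmembrane ADAM genes in unwounded corneas. In wounded corneas its share was 41.5% and 19.6%, and with RNase III 10.3% and 27.2%. The other 8 genes of that class summed to 178 and 177 TPM unwounded, 163 and 134 TPM wounded and 258 and 197 TPM with RNase III. With Adam8 the class summed to 179 and 178 TPM unwounded and to 278 and 167 TPM wounded, so 1 wounded library lay above and 1 below the unwounded ones.

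**Figure D2:**
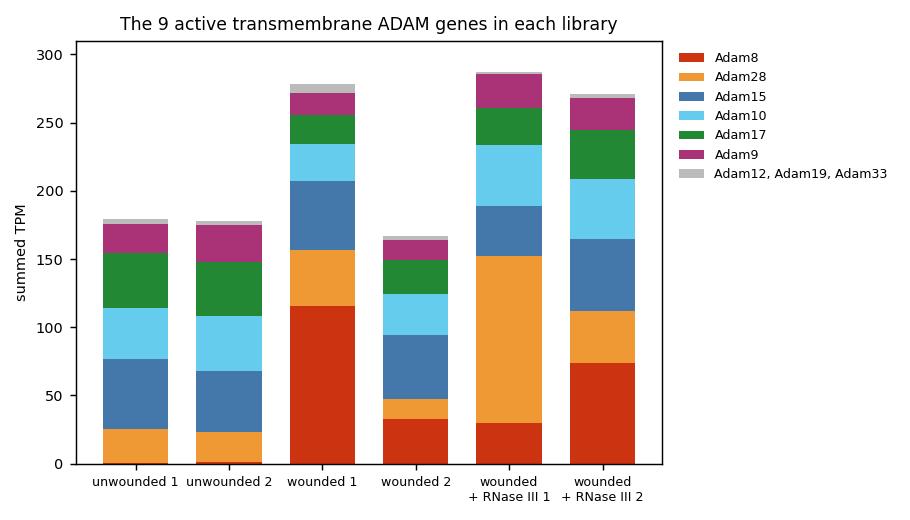
Summed TPM of the 9 active transmembrane ADAM genes in each library, as stacked bars from 0, with 1 colour per gene and the 3 lowest genes joined. Adam8 is barely visible in unwounded corneas and has 115.44 TPM in wounded replicate 1, and Adam28 has 122.43 TPM in RNase III replicate 1.

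Leukocyte markers had positive differences with the wound, as Adam8 did, but with RNase III not all of them did. Of 7 neutrophil markers 4 rose with the wound by limma (S100a8, S100a9, Csf3r and Mmp9), and of 8 monocyte and macrophage markers 4 did (Lyz2, Cd68, Cd14 and Ly6c2), where 6.12% of all tested genes rose. For Csf3r, Cxcr2, Mmp9, Retnlg and Ly6c2 both wounded libraries reached 1 TPM and no unwounded library did. With the wound these genes had to be higher. Between RNase III and unwounded corneas 7 of 7 neutrophil markers had positive differences, and 3 rose by limma. Csf3r, Cxcr2, Mmp9, Retnlg, Ly6g and the monocyte marker Ly6c2 reached 1 TPM in both RNase III libraries and in no unwounded library. In that comparison they had to be higher. Of the 8 monocyte and macrophage markers 4 had positive and 4 negative differences there. By limma 2 of them rose, where 4.72% of all tested genes did. The neutrophil list summed to 45.6 to 65.5 TPM unwounded, 435 to 8784 TPM wounded and 1243 to 1373 TPM with RNase III. Its defining markers Retnlg and Ly6g were listed at 0 in both unwounded libraries, and Ly6g also in wounded replicate 2. The monocyte and macrophage list summed to 98.9 to 167 TPM unwounded, 599 to 1282 TPM wounded and 236 to 494 TPM with RNase III, with no member at 0. Csf3r, the receptor for a neutrophil growth factor, had 37.47 and 9.79 TPM after the wound alone and 6.78 and 18.31 TPM with RNase III. Adam8 was highest in wounded replicate 1, then RNase III replicate 2, wounded replicate 2 and RNase III replicate 1. Csf3r had that order, but it was the only 1 of 7 neutrophil markers that did, and 6 of the 7 were lowest in wounded replicate 2. Of 8 monocyte and macrophage markers 2 had it (Cd14 and Cd68), and 8 of 8 were lowest in RNase III replicate 1. All 7 neutrophil markers and 5 of 8 monocyte and macrophage markers were highest in wounded replicate 1, as Adam8 was. The part of leukocyte number in the Adam8 values was not tested.

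**Figure D3:**
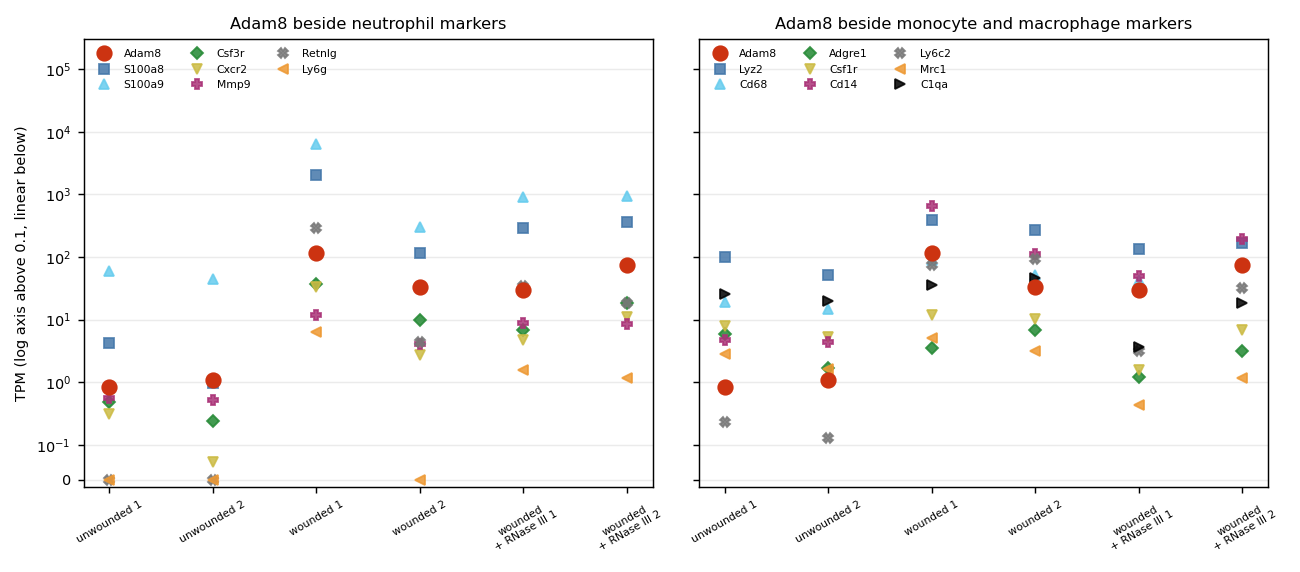
TPM of Adam8 (large red circles, in both panels) beside 7 neutrophil markers (left) and 8 monocyte and macrophage markers (right) in each library; the axis is logarithmic above 0.1 TPM and linear below. Of the libraries with a wound, wounded replicate 2 is lowest for 6 of 7 neutrophil markers and RNase III replicate 1 for 8 of 8 monocyte and macrophage markers, while Adam8 is lowest in RNase III replicate 1.

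The promoters of Adam8 and Adamts18 are shown because these members moved in opposite directions against unwounded corneas, also with RNase III. The direction of Adamts18 was set by the filter, as given above. The sequences are the 250 bases before the start site in RefSeq (GRCm38.p6), chr7:139992563-139992812 and chr8:113848840-113849089, both on the minus strand and written 5′ to 3′ along the gene. Capitals mark matches on either strand to the CCAAT box (CCAAT) and the GC box (GGGCGG).
Adam8: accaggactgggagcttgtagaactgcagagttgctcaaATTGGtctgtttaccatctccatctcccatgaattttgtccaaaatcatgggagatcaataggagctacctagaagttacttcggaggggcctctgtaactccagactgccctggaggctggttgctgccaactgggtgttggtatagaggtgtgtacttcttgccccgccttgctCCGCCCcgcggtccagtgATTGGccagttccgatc
Adamts18: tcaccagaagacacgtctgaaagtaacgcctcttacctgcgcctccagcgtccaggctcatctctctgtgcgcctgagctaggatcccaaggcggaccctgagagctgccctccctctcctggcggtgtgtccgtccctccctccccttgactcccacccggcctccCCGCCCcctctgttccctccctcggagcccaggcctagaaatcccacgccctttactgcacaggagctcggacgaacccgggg
The Adam8 stretch holds 2 CCAAT boxes, whose first shown bases lie 211 and 17 bases before the start site, and 1 GC box 35 bases before it, all on the opposite strand. The Adamts18 stretch holds 1 GC box 83 bases before the start site, also on the opposite strand, and no CCAAT box. Of 32851 promoter stretches of that length 33.8% hold CCAAT and 32.7% hold GGGCGG. Neither stretch holds the AP-1 motif TGANTCA (6.75% of all stretches), the STAT motif TTCNNNGAA (7.02%) or the PU.1 motif GAGGAAG (10.6%), each searched on both strands. The NF-kB motif, also searched on both strands and held by 45.8% of all stretches, has a match 14 bases before the start site of Adamts18 and none in the Adam8 stretch. The Adam8 stretch is 52.8% G or C and the Adamts18 stretch 65.2%, beside a median of 52.4% over all. Promoters of 25 of the 47 members were found there.

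The other abundant sheddases had lower values after the wound or overlapped, and none of them passed. Adam17, which frees tumour necrosis factor and ligands of the epidermal growth factor receptor, had 40.30 and 39.76 TPM without and 21.31 and 24.86 TPM with a wound. Both wounded libraries lay below both unwounded libraries (limma log2 difference -0.77, SE 0.22, adjusted p = 0.0561). Adam10, which cuts Notch receptors and E-cadherin, had 37.12 and 40.48 TPM without and 27.29 and 30.21 TPM with a wound (limma log2 difference -0.42, SE 0.18, adjusted p = 0.151). Adam9, a sheddase of keratinocytes and many other cells, had 21.17 and 27.39 TPM without and 15.97 and 14.92 TPM with a wound (limma log2 difference -0.61, SE 0.22, adjusted p = 0.102). For Adam10 and Adam9, too, the groups did not overlap, where 46.8% of all tested genes were lower without overlap. After median-of-ratios scaling the log2 differences were -0.49 for Adam17, -0.14 for Adam10 and -0.33 for Adam9, and none passed. Adam15 had 51.83 and 44.10 TPM without and 50.71 and 46.68 TPM with a wound, which overlap (limma log2 difference 0.02, SE 0.23, adjusted p = 0.947).

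Adam28, a sheddase known from lymphocytes and epithelia, varied more within the wounded group than between the wounded and unwounded groups. It had 24.39 and 22.40 TPM without and 41.12 and 14.88 TPM with a wound, so the wounded libraries lay on either side of the unwounded ones (limma log2 difference 0.09, SE 0.62, adjusted p = 0.932). Its RNase III libraries, at 122.43 and 38.48 TPM, lay above both unwounded ones, as 26.3% of all tested genes did. That difference did not pass (limma log2 difference 1.52, SE 0.62, adjusted p = 0.14). The lower genes of the class did not pass either. Adam12, linked to muscle and fat progenitors and to fibroblast activation, had 0.25 and 0.29 TPM without and 1.77 and 0.73 TPM with a wound, with no overlap (limma log2 difference 0.79, SE 0.36, adjusted p = 0.164). It reached 1 TPM only in libraries with a wound, so the filter favoured higher values there. Adam19, a sheddase of neuregulins, had 1.11 and 0.97 TPM without and 3.40 and 1.03 TPM with a wound, and wounded replicate 2 lay within the unwounded values. Adam33, known from human airway genetics, had 2.02 and 1.62 TPM without and 1.24 and 0.90 TPM with a wound, with no overlap (limma log2 difference -0.45, SE 0.32, adjusted p = 0.339).

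Among the ADAMTS proteases that cut large proteoglycans, Adamts4 rose. Adamts4 (ENSMUSG00000006403, chromosome 1, 171250421 to 171260637, plus strand), an aggrecan- and versican-cutting enzyme, had 0.52 and 0.58 TPM without a wound, 5.30 and 3.12 with one and 0.89 and 3.07 with a wound and RNase III. Both wounded libraries lay above the other 4. No unwounded library reached 1 TPM and both wounded libraries did, so its direction with the wound was set by the filter. The rise was 1.72 in log2(TPM + 1) units (limma SE 0.46, adjusted p = 0.0496), at the edge of the threshold. It missed the threshold under 5 of 7 other settings and when either unwounded or either wounded library was left out, with limma adjusted p between 0.0508 and 0.244. Of the 47 members 13, Adamts4 and Adamts2 among them, overlap another protein-coding or antisense gene, and no source used here says whether counting used strand.

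Adamts1, the most abundant ADAMTS protease here, cuts versican and aggrecan and overlapped between the groups. It had 11.48 and 14.25 TPM without and 14.92 and 11.21 TPM with a wound (limma log2 difference 0.02, SE 0.38, adjusted p = 0.98). Its neighbour Adamts5, 53.1 kb away on chromosome 16 and the main aggrecan-cutting enzyme of mouse cartilage, had 2.31 and 2.91 TPM without and 4.79 and 1.67 TPM with a wound. The wounded values of Adamts5 lay on either side of the unwounded ones (limma log2 difference 0.13, SE 0.54, adjusted p = 0.88). Adamts9, a versican-cutting enzyme, had values of 1.41 to 2.69 TPM over the 6 libraries. Adamts15 had 1.31 and 1.70 TPM without and 0.51 and 0.65 TPM with a wound (limma log2 difference -0.66, SE 0.34, adjusted p = 0.206). Adamts8 stayed at or below 0.66 TPM and Adamts20, the gene mutated in belted mice, at or below 0.18 TPM, and neither was tested.

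Adamts18 was the member that fell, and it had been tested only because unwounded corneas reached 1 TPM. Of the 24 tested members that reached 1 TPM in more than 1 group, 0 passed as lower with the wound. Adamts18 (ENSMUSG00000053399, chromosome 8, 113697126 to 113848738, minus strand) had 1.84 and 2.26 TPM without and 0.02 and 0.21 TPM with a wound. With RNase III it was listed at 0 in replicate 1 and had 0.09 TPM in replicate 2, so all 4 libraries with a wound lay far below the unwounded ones. Its difference with the wound was -1.45 in log2(TPM + 1) units (limma SE 0.32, adjusted p = 0.0337). The limma call was lost without unwounded replicate 1 (adjusted p = 0.134) or 2 (0.212), without wounded replicate 1 (0.161) or 2 (0.0656), and with a pseudocount of 0.1 (0.0794). Leaving out a library, the difference lay between -1.58 and -1.33.

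The microfibril-related proteases Adamts10 and Adamts17 did not pass. Adamts10, a microfibril-associated protease, had 10.09 and 9.96 TPM without and 4.74 and 5.69 TPM with a wound (limma log2 difference -0.83, SE 0.27, adjusted p = 0.0804). Adamts17, its close relative, had 3.08 and 1.51 TPM without and 0.13 and 0.82 TPM with a wound (limma log2 difference -1.16, SE 0.42, adjusted p = 0.102). Both wounded libraries lay below both unwounded libraries for each of them. For Adamts17 this had to be so, because both unwounded libraries reached 1 TPM and no wounded library did. The further members of that class, Adamts6, Adamts16 and Adamts19, stayed at or below 0.52 TPM and were not tested.

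Adamts2, the protease that removes the amino-terminal propeptide of fibrillar procollagens, had 6.16 and 5.14 TPM without and 3.32 and 3.29 TPM with a wound (limma log2 difference -0.62, SE 0.30, adjusted p = 0.185). Its relatives Adamts3 and Adamts14 were not tested. Adamts3 had 0.76 and 2.33 TPM without and 0.08 and 0.68 TPM with a wound, the highest value of any untested member, and Adamts14 at most 0.28 TPM. Adamts7, which cuts cartilage oligomeric matrix protein, went the other way, with 0.29 and 0.34 TPM without and 1.05 and 0.93 TPM with a wound (limma log2 difference 0.60, SE 0.34, adjusted p = 0.238). Adamts7, too, reached 1 TPM only in libraries with a wound, which favoured higher values there. Its relative Adamts12 had 0.28 and 0.27 TPM without and 0.11 and 0.17 TPM with a wound and was not tested. Adamts13, the von Willebrand factor protease made chiefly in liver, had at most 0.06 TPM in any library.

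The 5 ADAMTS-like genes had mixed directions, and none passed. Adamtsl4, a microfibril protein that holds the lens in place, had 17.01 and 12.80 TPM without and 28.39 and 20.48 TPM with a wound (limma log2 difference 0.67, SE 0.27, adjusted p = 0.124). Adamtsl5 had 8.08 and 9.80 TPM without and 13.50 and 13.96 TPM with a wound (limma log2 difference 0.57, SE 0.23, adjusted p = 0.129). In both, the wounded libraries lay above the unwounded ones, and Adamtsl5 passed after median-of-ratios scaling (limma adjusted p = 0.0435). Adamtsl1, Adamtsl2 and Adamtsl3 had log2 differences of -0.29, -0.47 and -0.64.

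The ADAM genes of the nervous system, whose products bind LGI proteins at synapses and have no active site, had lower values after the wound, without passing. The groups did not overlap for 3 of 3, where 46.8% of all tested genes were lower without overlap. All 3 reached 1 TPM in both unwounded libraries, and Adam22 also in RNase III replicate 2 (1.14 TPM). No wounded library did, so the wounded values had to be lower. Adam23 had 1.40 and 1.29 TPM without and 0.15 and 0.17 TPM with a wound (limma log2 difference -1.02, SE 0.31, adjusted p = 0.0674). Adam11 had 1.90 and 3.81 TPM without and 0.79 and 0.81 TPM with a wound (limma log2 difference -1.05, SE 0.38, adjusted p = 0.101). Adam22 had 1.12 and 3.09 TPM without and 0.27 and 0.69 TPM with a wound (limma log2 difference -1.01, SE 0.47, adjusted p = 0.17). For Adam11 and Adam22 unwounded replicate 2, the library with the highest retina and pigment sum, was above replicate 1, and for Adam23 it was not. Nerve and Schwann cell markers, 4 genes, summed to 24.8 and 19.3 TPM unwounded, 13.1 and 11.3 TPM wounded and 2.98 and 7.94 TPM with RNase III, with Sox10 at 0 in RNase III replicate 1. The part of these tissues in the nervous-system ADAM values was not tested.

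RNase III against wounded corneas gave no member past the threshold. With limma 0 of 28 members and 0% of all 14748 tested genes passed at adjusted p under 0.05. An unadjusted p under 0.05 was found for 4 of 28 members (Adamts2, Adam10, Adamtsl4 and Adam9) and for 12.5% of all tested genes. The groups did not overlap for 15 of 28 members, 7 higher and 8 lower with RNase III, beside 25.9% higher, 14.3% lower and 40.2% in all over the genes tested. The median log2 difference of members was -0.12 beside 0.09 over all genes.

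The 5 largest differences without overlap were those of Adamts2, Adamts4, Adamtsl4, Adam10 and Adam9. Adamts2 had 3.32 and 3.29 TPM after the wound alone and 0.88 and 1.33 TPM with RNase III (limma log2 difference -1.04, SE 0.30, adjusted p = 0.317). Transcripts of its procollagen substrates were lower too, without passing, with 179.75 and 199.75 TPM after the wound alone and 6.78 and 108.33 TPM with RNase III for Col1a1 and 106.81 and 75.34 TPM after the wound alone and 3.40 and 40.89 TPM with RNase III for Col3a1. The keratocyte marker sum was also lower, as given above, and its part in the Adamts2 values was not tested. Adamts4 had 5.30 and 3.12 TPM after the wound alone and 0.89 and 3.07 TPM with RNase III (limma log2 difference -0.88, SE 0.46, adjusted p = 0.476), so that RNase III replicate 2 lay just under wounded replicate 2. Adamtsl4 had 28.39 and 20.48 TPM after the wound alone and 39.33 and 50.48 TPM with RNase III (limma log2 difference 0.86, SE 0.27, adjusted p = 0.331).

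Adam10 had 27.29 and 30.21 TPM after the wound alone and 44.95 and 43.81 TPM with RNase III (limma log2 difference 0.61, SE 0.18, adjusted p = 0.324). Adam9 had 15.97 and 14.92 TPM after the wound alone and 24.44 and 23.49 TPM with RNase III (limma log2 difference 0.60, SE 0.22, adjusted p = 0.366). With RNase III Adam9 lay within its unwounded values and Adam10 above them, and the comparison shares the wounded libraries with the one before. Adam28 had the largest difference in size, but its groups overlapped, with 41.12 and 14.88 TPM after the wound alone and 122.43 and 38.48 TPM with RNase III (limma log2 difference 1.43, SE 0.62, adjusted p = 0.411). The wounded and RNase III groups of Adam8 overlapped (limma log2 difference -0.39, SE 0.64, adjusted p = 0.818), and the difference was 0.50 without wounded replicate 1 and 0.25 without RNase III replicate 1.

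RNase III against unwounded corneas gave 4 members past the threshold. Adam8 and Adamtsl4 rose, 2 of 28 members where 4.72% of all tested genes rose. Adamts2 and Adamts18 fell, 2 of 28 where 4.58% of all fell, and 4 of 28 compare with 9.3% in both directions (limma, adjusted p under 0.05). Adamts18 had been tested only because unwounded corneas reached 1 TPM, and so had to be lower. An unadjusted p under 0.05 was found for 12 of 28 members and 34.4% of all tested genes. The groups did not overlap for 20 of 28 members, 9 higher and 11 lower, beside 26.3% higher, 39.7% lower and 66% in all. The comparison shares its unwounded libraries with the wound comparison.

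Adam8 rose by 4.61 in log2(TPM + 1) units (limma SE 0.64, adjusted p = 0.0192), and the difference of Adamts18 was -1.54 (limma SE 0.32, adjusted p = 0.038). Adamtsl4 (ENSMUSG00000015850, chromosome 3, 95676201 to 95687917, minus strand), at 39.33 and 50.48 TPM with RNase III, rose by 1.53 (limma SE 0.27, adjusted p = 0.0285), or 2.89-fold on the TPM + 1 scale. Its 6 libraries stood in order of group without overlap, unwounded lowest and RNase III highest. The lens marker sum was 48.5 and 2744 TPM in the RNase III libraries, and its part in the Adamtsl4 values was not tested.

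Adamts2 (ENSMUSG00000036545, chromosome 11, 50602084 to 50807573, plus strand), at 0.88 and 1.33 TPM with RNase III, had a difference of -1.66 (limma SE 0.30, adjusted p = 0.0306). Its libraries stood in the opposite order, unwounded highest and RNase III lowest. Of 8 keratocyte markers 7 fell between these groups by limma, where 4.58% of all tested genes did. Kera went from 366.96 and 303.69 TPM to 7.98 and 19.96 TPM and Lum from 543.88 and 327.29 TPM to 57.64 and 82.66 TPM. The part of keratocytes in the Adamts2 values was not tested. Adamts10 (limma log2 difference -1.06, SE 0.27, adjusted p = 0.0577), Adam11 (limma log2 difference -1.50, SE 0.38, adjusted p = 0.0561) and Adam23 (limma log2 difference -1.21, SE 0.31, adjusted p = 0.057) missed the threshold.

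Each of the 4 limma calls was lost without unwounded replicate 1 (adjusted p from 0.0977 to 0.16) or 2 (0.137 to 0.226). The calls of Adam8 and Adamtsl4 were also lost without RNase III replicate 2 (limma adjusted p = 0.0525 and 0.0643) and that of Adamts2 without RNase III replicate 1 (0.0591). The call of Adamts18 was lost whichever library was left out.

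**Figure D4:**
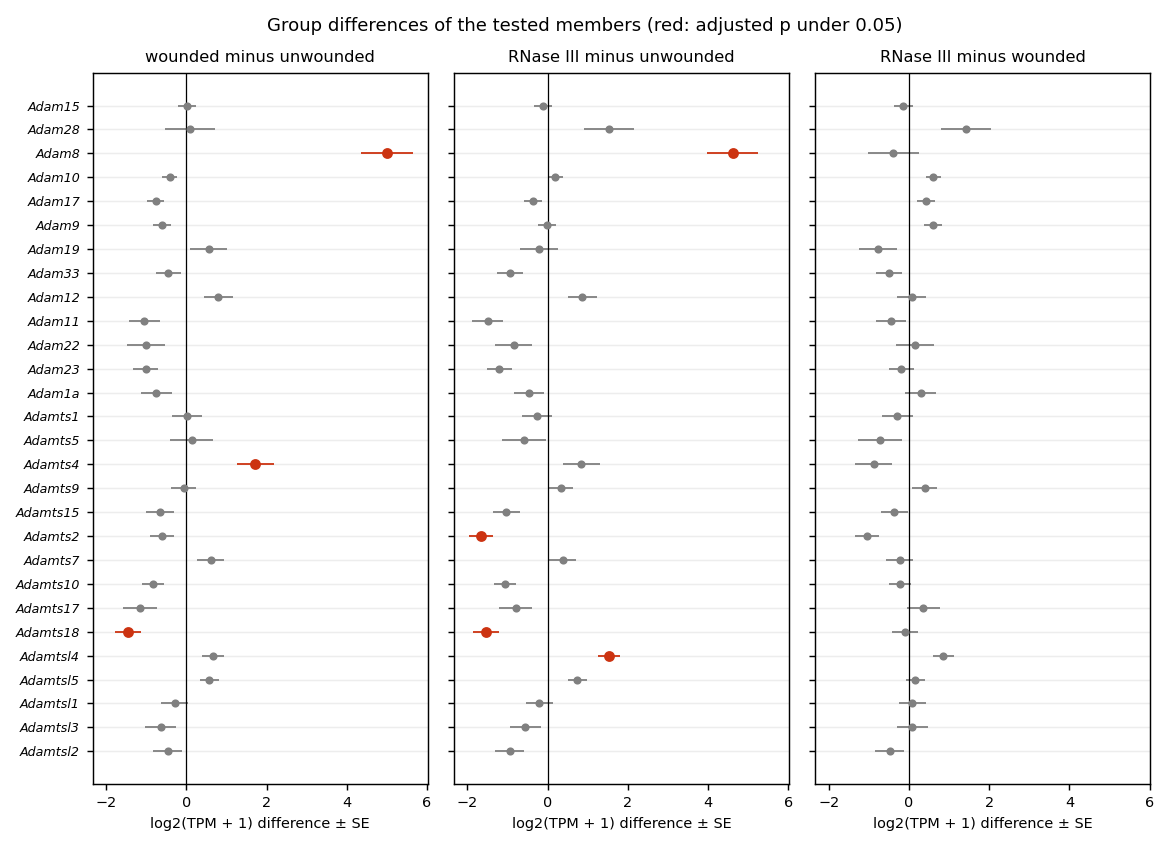
Difference in log2(TPM + 1) with its standard error from limma for the 28 tested members in the 3 comparisons, on 1 shared axis, with red for adjusted p under 0.05. Adam8 stands near 5 in both comparisons with unwounded corneas and near 0 between RNase III and wounded corneas, where no member is red.

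Genes that work with these proteases were counted in lists chosen by function. With either unwounded library left out, no gene of these lists passed in a comparison with unwounded corneas. Of 6 tested inhibitors Timp1 rose and Timp3 fell with the wound, where 6.12% and 9.83% of all tested genes did, and 0 passed by limma without wounded replicate 1. Timp3, which inhibits the products of Adam17, Adamts4 and Adamts5, had 113.17 and 109.87 TPM without a wound, 32.94 and 54.97 with one and 39.74 and 41.25 with a wound and RNase III. Its difference was -1.37 with the wound (limma SE 0.26, adjusted p = 0.0252) and -1.44 between RNase III and unwounded corneas (limma SE 0.26, adjusted p = 0.0301). Timp1, an inhibitor of matrix metalloproteinases and of the Adam10 product, had 7.08 and 4.75 TPM without a wound, 1993.78 and 481.20 with one and 164.83 and 638.86 with a wound and RNase III. Timp2 and Reck also fell with RNase III against unwounded corneas, where 4.58% of all genes did, and with either RNase III library left out no inhibitor fell.

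Of 13 partners of sheddases 1 rose and 2 fell with the wound, where 6.12% and 9.83% of all tested genes did, and 1 rose and 1 fell after median-of-ratios scaling. With either wounded library left out 0 passed by limma. Furin, the convertase that removes the inhibitory propeptide of most ADAM and ADAMTS proteins, had 26.96 and 28.32 TPM without a wound, 80.86 and 56.80 with one and 83.06 and 157.10 with a wound and RNase III. It rose by 1.26 with the wound (limma SE 0.33, adjusted p = 0.0478) and by 2.01 between RNase III and unwounded corneas (limma SE 0.33, adjusted p = 0.0258). Tspan15 and Tspan5, tetraspanins that carry the Adam10 product to the cell surface, fell with the wound. Tspan15 had 13.67 and 12.82 TPM without and 4.27 and 5.41 TPM with a wound (limma log2 difference -1.29, SE 0.27, adjusted p = 0.0301), and Tspan5 had 45.12 and 47.89 TPM without and 26.94 and 22.96 TPM with a wound (limma log2 difference -0.88, SE 0.20, adjusted p = 0.0343). Rhbdf1 and Rhbdf2, the iRhom genes whose products bring that of Adam17 to the surface, did not pass in any comparison.

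Of 35 tested shed substrates 8 rose and 3 fell with the wound, where 6.12% and 9.83% of all tested genes did, and the list had a median of 0.37 beside -0.26 over all genes. Without wounded replicate 1 none passed, and the median was 0.05. Areg, an Adam17 substrate and ligand of the epidermal growth factor receptor, had 11.89 and 13.67 TPM without a wound, 73.12 and 73.73 with one and 116.16 and 58.55 with a wound and RNase III. It rose by 2.44 (limma SE 0.32, adjusted p = 0.0134). Tnfrsf1b, a receptor for tumour necrosis factor, and Icam1, an adhesion receptor, rose by 2.82 and 2.23. Btc, another ligand of the epidermal growth factor receptor, had 10.74 and 11.42 TPM without and 1.44 and 3.56 TPM with a wound and fell, as did L1cam and Cx3cl1, with differences of -1.48 and -1.47. For RNase III against unwounded corneas 7 substrates rose by limma and 0 fell, where 4.72% and 4.58% of all tested genes did. Without RNase III replicate 2 there were 2 that rose and 1 that fell. For RNase III against wounded corneas 0 passed.

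Of 17 tested matrix substrates 0 passed with the wound by limma, and 8 had positive and 9 negative values. For RNase III against unwounded corneas Col5a1, Dcn and Fmod fell, 3 of 17 where 4.58% of all tested genes did, and 7 fell without RNase III replicate 2. All 17 had negative log2 differences between RNase III and wounded corneas, with a median of -1.05 and none past the threshold, where 6199 of all 14748 were negative. Without RNase III replicate 1 only 11 of the 17 were negative, with a median of -0.36, and without wounded replicate 1 there were 15. Versican, Vcan, the substrate shared by the products of Adamts1, Adamts4, Adamts5 and Adamts9, had 3.68 and 4.77 TPM without a wound, 9.31 and 4.07 with one and 1.36 and 14.81 with a wound and RNase III, with overlap among all groups. Aggrecan, Acan, for which the aggrecan-cutting enzymes are named, had at most 0.05 TPM in any library.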

How the data were processed

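The 6 samples, 2 per group, were assigned by their titles. RNA was purified on columns, per the labels' protocols, and made into Illumina libraries. The authors deposited TPM values for 54446 gene rows, each column summing to 1000000. The submitters' processing notes name STAR, RSEM, DESeq2 and mm10 without role or version; no source used here gives annotation or filters. Abundant transcripts of a library depress its other TPM. Symbols matched 54409 identifiers, and coordinates follow GENCODE M21 (GRCm38, which mm10 denotes).

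Values were analysed as log2(TPM + 1), which understates changes of low genes, for the 14748 genes that reached 1 TPM in 2 or more libraries. limma 3.58.1 (R 4.3.3) fitted the 3 group means over all 6 libraries with a mean-variance trend, 3 residual and a median of 3.6 prior degrees of freedom. Tests were two-sided, adjusted by Benjamini-Hochberg over all genes tested. The fit was also run on simulated data with independent normal noise, and no result given here rests on that run. Role classes, lists and members were chosen with earlier results of these data known. Named by rule were members past the threshold, the 2 most abundant per class, Adam10, Adam17, Adamts1, Adamts4, Adamts5 and Adamts13, the 5 largest differences without overlap between RNase III and wounded corneas, and up to 4 members of each related list past the threshold; any other gene was named after its values were seen, and a gene that the rule takes is not reported here. The alternatives are given under the dependence on processing. Protein sequences were not used here.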

Additional observations from a re-analysis of the deposited data

How the results depend on the processing

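The alternatives were median-of-ratios scaling, the replicate block, a pseudocount of 0.1, a filter at 0.5 TPM or none, only the 2 groups compared, no mean-variance trend, and leaving out each library (the lone sample of a group is then taken to vary as the other groups do). Without a filter 444 genes passed with the wound in place of 2352, and 69 in place of 1371 for RNase III against unwounded corneas. Leaving out each library gave 25 to 3242 genes with the wound, 0 to 1 between RNase III and wounded corneas and 17 to 1283 between RNase III and unwounded corneas. A pseudocount of 0.1 gave 1 gene between RNase III and wounded corneas. With scaling the share of higher genes among those that passed was 60.4% in place of 38.4% with the wound. Of members, 1 passed with the wound at a pseudocount of 0.1 (Adam8) in place of 3, and 0 to 4 when each library was left out. Between RNase III and unwounded corneas 1 member passed without a filter (Adam23) in place of 4, 7 with scaling, 7 without the trend and 0 to 3 when each library was left out. No member passed between RNase III and wounded corneas under any of these settings. Adam17 passed with the wound with only the 2 groups compared (limma adjusted p = 0.0372) and without either RNase III library.

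Directions over the settings were followed for the tested members named by rule, not for all 28. Among those followed, directions changed only for members that had not passed in that comparison. With scaling, RNase III against unwounded corneas gave 0.05 for Adam15 and 0.15 for Adam9. Leaving out each library, the log2 difference with the wound ran from -0.09 to 0.14 for Adam15, -0.62 to 0.79 for Adam28, -0.18 to 0.21 for Adamts1 and -0.43 to 0.69 for Adamts5. For RNase III against wounded corneas it ran from -0.40 to 0.12 for Adam15, -1.28 to 0.50 for Adam8, -0.24 to 0.55 for Adam22, -0.79 to 0.22 for Adamts1, -0.48 to 0.02 for Adamts7 and -0.21 to 0.03 for Adamts18. For RNase III against unwounded corneas it ran from -0.37 to 0.14 for Adam15, -0.19 to 0.17 for Adam9, -0.77 to 0.23 for Adamts1 and -1.19 to 0.01 for Adamts5. The cause was not tested, beyond the fewer samples or genes that a setting uses.

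Deviations of same-numbered libraries had correlations of 0.146, 0.103 and -0.047 between groups, so the numbers were not taken to pair the samples. With the replicate block 2 members passed with the wound (Adam8 and Adamts18), and the same 4 passed between RNase III and unwounded corneas as without it; over all genes 2032 and 1449 passed. TPM gives no depth, so no limit of detection can be set for the low members.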
